A study of Rattus norvegicus with 20 samples.

Results

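Astrocyte marker genes were followed in the accumbens shell, a reward region of the ventral striatum, of alcohol-preferring (P) rats. The set holds 31 genes that mark astrocytes or their reaction to injury. A gene was found by the symbol the platform annotation gives its probe set, and where it had several, the one of highest mean value across the 20 arrays stood for it. Of the 31 genes, 30 had a probe set and 1, Sox9, had none. Serpina3n and Lcn2 were too dim to be tested, which left 28 genes among the 10746 genes tested on the array. The ethanol group (n = 10) had been offered 15 and 30% ethanol to drink in adolescence. Rats of the same line that had water alone made up the water group (n = 10). The line was bred for high ethanol drinking, so both groups carry that selection and no unselected rats were compared. The interval between drinking and dissection, the sex of the animals and the amount drunk are not stated in the labels.

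Astrocytes tile the grey matter, take up potassium, glutamate and glycine around synapses, line blood vessels with end-feet rich in water channels, and are joined to each other by gap junctions. After injury or inflammation many of them become reactive, a state in which the intermediate filament proteins GFAP and vimentin, the adhesion receptor CD44 and the secreted proteins serpin A3N and lipocalin 2 are known to rise. Genes of everyday astrocyte work, such as transporters, connexins and metabolic enzymes, are called homeostatic here.

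Each animal gave 1 array, and values are on a log2 scale, so that a difference of 1 is a doubling. The number of arrays limits the precision of every difference. In tissue RNA, fewer astrocytes and less RNA per astrocyte cannot be told apart. A few arrays stood apart. Water animals 12, 17 and 20 had the lowest median correlation with the other arrays (0.982, 0.980 and 0.972, against 0.988 to 0.994 for the rest). Medium spiny neurons are the striatal cells that send axons out of it, and their markers were low in ethanol animal 8 and in water animals 17, 19 and 20. Their mean deviation from the 20-animal mean was -0.33 in ethanol animal 8 and -0.09 to 0.35 in the other ethanol animals. It was -0.72, -0.52 and -1.004 in water animals 17, 19 and 20, and -0.07 to 0.34 in the other water animals. Oligodendrocyte markers were at 0.52 in ethanol animal 8 and at 0.54, 0.39 and 0.42 in water animals 17, 19 and 20. Control probe sets, whose 3' minus 5' value grows as RNA degrades, ran from 1.06 to 1.43 in ethanol animals and from 1.10 to 1.70 in water animals. The mean of this value was 1.21 (SD 0.12) in ethanol animals and higher, 1.40 (SD 0.22), in water animals. What part these array differences had in the results was not tested; values without those animals are given beside the results that rest on them.

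Ethanol was compared with water first. None of the 28 astrocyte genes differed past the threshold (limma, Benjamini-Hochberg adjusted over all probe sets, 0.05): 0 were higher and 0 were lower. Over all genes tested, 0.0931% passed, with 0.0838% higher and 0.00931% lower in ethanol. Before adjustment, 2 of the 28 genes, Hes5 and Id3, had a p under 0.05, against 10% of all genes. The ranges of the groups overlapped for every one of the 28 genes, and 0.0651% of all genes had ranges apart. The estimated difference was positive for 12 genes and negative for 16, with a median of -0.03, against a median of 0.00016 over all genes.

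**Figure D1:**
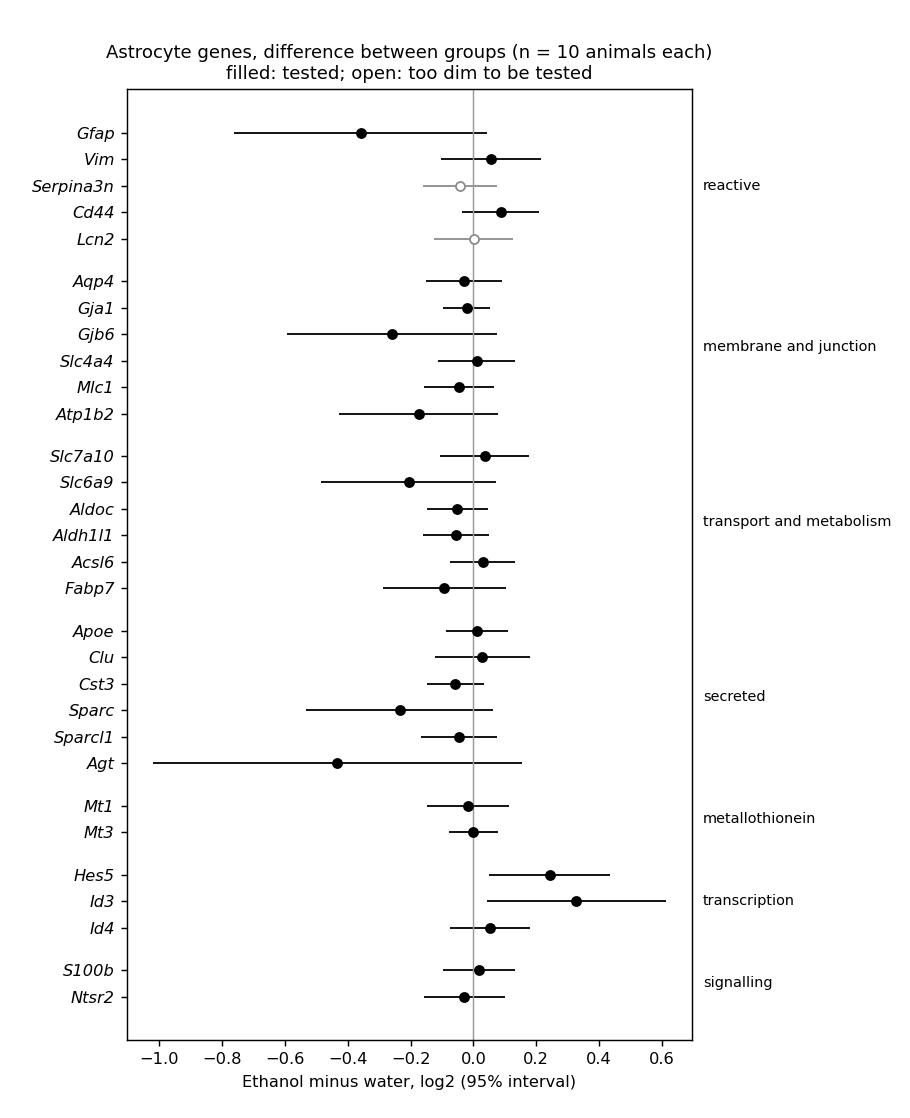
Difference between groups for 30 astrocyte genes, as ethanol minus water on the log2 scale (horizontal axis), by role. Points are differences, lines are 95% intervals (n = 10 animals each), and open points mark the 2 genes too dim to be tested. The intervals of Gfap, Agt and Id3 are wide, those of Gja1 and Mt3 narrow, and only those of Hes5 and Id3 lie on one side of 0, and neither gene passed after adjustment.

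Of the 5 reactive genes, 3 were tested and 0 passed. Gfap, the filament protein most used to stain astrocytes, had a lowest, median and highest value of 9.25, 10.03 and 11.08 in ethanol animals, against 9.74, 10.35 and 11.05 in water animals. The groups overlapped almost fully, although 8 of 10 ethanol animals lay below the water mean. Its mean was 10.06 ± 0.51 in ethanol animals and 10.42 ± 0.43 in water animals (SD, n = 10 each), a difference of -0.36 (SE 0.19, 95% interval -0.76 to 0.04, adjusted p = 0.458), or 0.780-fold. The Gfap difference was -0.13 without water animals 17, 19 and 20 (adjusted p = 0.825), and -0.47 without ethanol animal 8 alone. Vim, which encodes the filament protein vimentin, had values of 9.57, 9.74 and 10.22 in ethanol animals, against 9.54, 9.73 and 9.98 in water animals. The medians nearly coincided, and the difference was 0.06 (SE 0.08, interval -0.10 to 0.22, adjusted p = 0.775), and 0.0078 without ethanol animal 5. Cd44, the receptor for hyaluronan, had values of 7.27, 7.41 and 7.62 in ethanol animals, against 7.09, 7.32 and 7.63 in water animals. Its difference was 0.09 (SE 0.06, interval -0.04 to 0.21, adjusted p = 0.547), and a second probe set gave 0.05.

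The 2 secreted proteins of the reactive group were close to the floor of the array. Serpina3n, a serine protease inhibitor, had values of 4.51, 4.72 and 4.94 in ethanol animals, against 4.57, 4.76 and 4.93 in water animals, a difference of -0.04 (interval -0.16 to 0.07). Lcn2, which encodes a protein that captures bacterial iron carriers, had values of 4.38, 4.61 and 4.74 in ethanol animals, against 4.37, 4.59 and 4.81 in water animals, a difference of 0.00075 (interval -0.13 to 0.13). No animal of either group stood out for either gene. Each had 1 probe set, and with values this dim the array could miss a change.

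Further reactive genes gave the same count. Among 12 genes listed as rising in most kinds of astrocyte reaction, 6 could be tested and 0 passed, with 1 at an unadjusted p under 0.05, against 10% of all genes. That gene, S1pr3, a receptor for sphingosine-1-phosphate, averaged 8.77 ± 0.13 in ethanol animals and 8.59 ± 0.12 in water animals, a difference of 0.18 (SE 0.05, adjusted p = 0.282) with 9 of 10 ethanol animals above the water mean. Stat3, Cp and Aspg differed by -0.07, -0.09 and 0.05. Of the genes listed for inflammation, 6 were tested and 0 passed, with differences of 0.14 for Fkbp5 and 0.13 for Psmb8, and of -0.11 for Amigo2 and 0.05 for Serping1. Of the genes listed for ischaemia, 4 were tested and 0 passed: S100a10 differed by -0.29, Ptgs2 by 0.23, Tm4sf1 by 0.03 and Emp1 by 0.0077. None of these 10 genes had an unadjusted p under 0.05. Complement C3, Timp1, Socs3, Cxcl10, Lif and Il6 were too dim to be tested.

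Hes5, Id3 and Id4, which encode repressors of transcription in neural progenitors and astrocytes, formed the one role group whose tested genes all had a positive difference. HES5 acts downstream of Notch, and ID proteins bind and disable basic helix-loop-helix factors. Hes5 had values of 8.03, 8.45 and 8.81 in ethanol animals, against 7.79, 8.28 and 8.54 in water animals. All but 1 of the ethanol animals lay above the water mean. The difference was 0.24 (SE 0.09, interval 0.05 to 0.43, adjusted p = 0.334), while a second, dimmer probe set of Hes5 differed by 0.02. Id3 had values of 10.26, 10.39 and 11.10 in ethanol animals, against 9.49, 10.17 and 10.65 in water animals. Each of the 10 ethanol animals was above the water mean, 10.14, and the low values of the water group came from animals 17, 20, 19 and 12, at 9.49, 9.72, 9.86 and 9.87. The Id3 difference was 0.33 (SE 0.14, interval 0.04 to 0.61, adjusted p = 0.371), and 0.13 without water animals 17, 19 and 20 (adjusted p = 0.697). Id4 differed by 0.05 (adjusted p = 0.731), with 3 other probe sets at 0.11, 0.10 and -0.02.

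**Figure D2:**
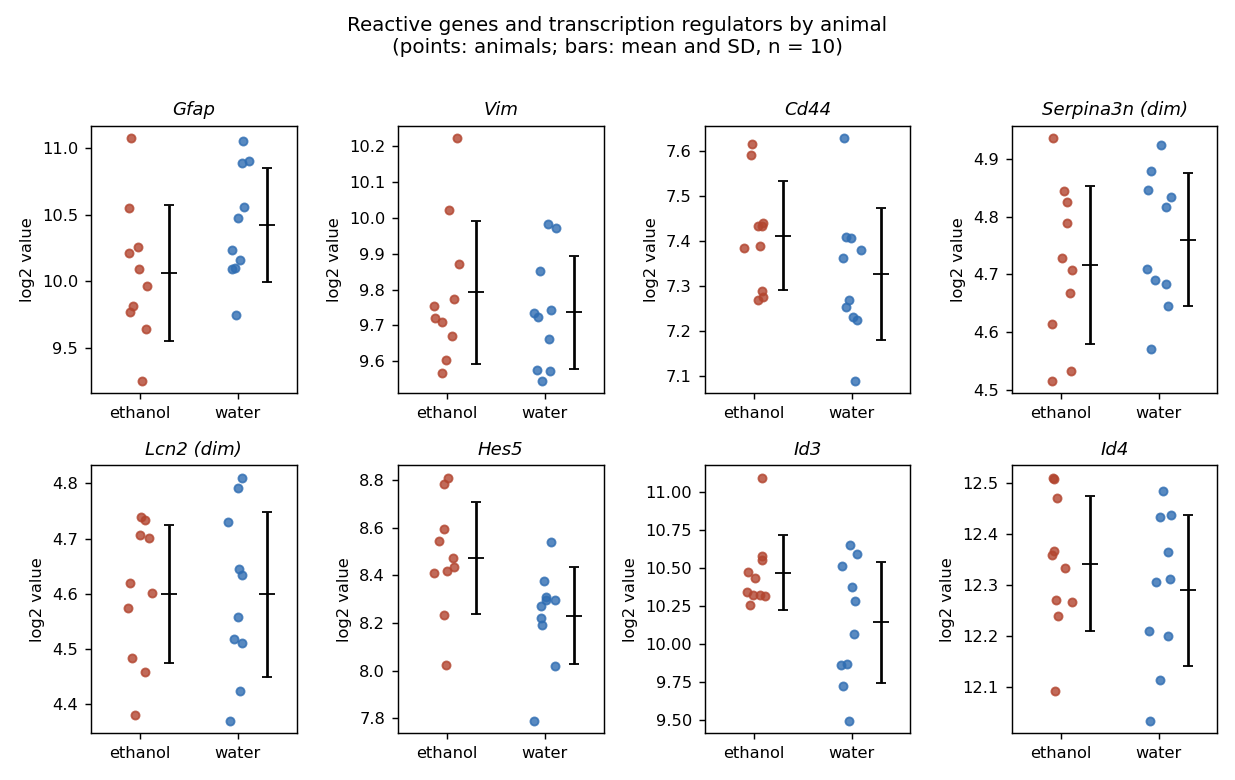
Log2 values of the 5 reactive genes and of Hes5, Id3 and Id4 by animal (points, ethanol left of water in each panel), with mean and SD (n = 10 each). The groups overlap in every panel. Id3 shows ethanol animals between 10.26 and 11.10 and water animals spread from 9.49 to 10.65; each panel has its own vertical scale.

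Genes of the membrane and of gap junctions numbered 6, all tested, of which 0 passed, 1 was positive and 5 were negative. Gjb6 encodes connexin 30, a gap junction protein of grey-matter astrocytes. Its values were 9.80, 10.09 and 10.43 in ethanol animals, against 9.69, 10.39 and 11.21 in water animals. The water group reached both lower and higher than the ethanol group, and the difference was -0.26 (SE 0.16, interval -0.59 to 0.08, adjusted p = 0.511). Atp1b2, the beta 2 subunit of the sodium pump, had values of 11.32, 11.48 and 11.71 in ethanol animals, against 11.34, 11.60 and 12.64 in water animals. Its difference was -0.17 (SE 0.12, interval -0.43 to 0.08, adjusted p = 0.552). These differences were -0.01 for Gjb6 and 0.02 for Atp1b2 when water animals 17, 19 and 20 were left out. With ethanol animal 8 left out as well, both were negative, but far smaller than with all animals. The water channel Aqp4 differed by -0.03, connexin 43 (Gja1) by -0.02, the bicarbonate cotransporter Slc4a4 by 0.0099 and the membrane protein Mlc1 by -0.05. The adjusted p of these 4 genes lay between 0.724 and 0.958.

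Transport and metabolism also gave 0 of 6 past the threshold, with 2 positive and 4 negative. Slc6a9 encodes the glycine transporter GlyT1. It had values of 9.70, 10.01 and 10.54 in ethanol animals, against 9.90, 10.12 and 11.10 in water animals. The difference was -0.21 (SE 0.13, interval -0.48 to 0.07, adjusted p = 0.526), and -0.0096 without water animals 17, 19 and 20. Without ethanol animal 8 alone it was -0.26. Aldh1l1, a folate enzyme used as a general astrocyte marker, had values of 8.61, 8.81 and 8.98 in ethanol animals, against 8.66, 8.88 and 9.01 in water animals, and differed by -0.06 (SE 0.05, interval -0.16 to 0.05, adjusted p = 0.645), or by -0.03 without ethanol animal 6. Aldoc, the brain aldolase of glycolysis, had values of 13.60, 13.74 and 13.84 in ethanol animals, against 13.61, 13.77 and 14.06 in water animals, and differed by -0.05 (SE 0.05, interval -0.15 to 0.05, adjusted p = 0.657), or by -0.02 without water animal 20. The amino acid exchanger Slc7a10, the fatty acid activating enzyme Acsl6 and the fatty acid binding protein Fabp7 differed by 0.04, 0.03 and -0.09. The ranges of the groups overlapped for all 6.

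Secreted proteins had 0 of 6 past the threshold, 2 positive and 4 negative, and held the widest difference of the set. Agt encodes angiotensinogen, the precursor of angiotensin, which astrocytes make in the brain. Its values were 10.21, 10.50 and 11.27 in ethanol animals, against 10.06, 10.79 and 12.53 in water animals. Ethanol animal 8 was the highest of its group, and water animals 20, 17 and 19 were the highest of theirs at 12.53, 12.25 and 11.74. The difference was -0.43 (SE 0.28, interval -1.02 to 0.15, adjusted p = 0.528), or 0.741-fold. Leaving out those 3 water animals turned it to 0.06 (adjusted p = 0.938). With ethanol animal 8 left out as well it was negative, but far smaller than with all animals. The sign thus depended on which of these animals were kept. Sparc, a matrix-binding glycoprotein, had values of 12.89, 13.18 and 13.68 in ethanol animals, against 12.99, 13.33 and 14.32 in water animals. Its difference was -0.23 (SE 0.14, interval -0.53 to 0.06, adjusted p = 0.502), a second probe set gave -0.31, and without those 3 water animals it was -0.0090. Without ethanol animal 8 alone it was -0.29. Cst3, the protease inhibitor cystatin C, had values of 14.93, 14.99 and 15.15 in ethanol animals, against 14.95, 15.02 and 15.31 in water animals, and differed by -0.06 (SE 0.04, interval -0.15 to 0.03, adjusted p = 0.584), or by -0.03 without water animal 20. The apolipoproteins Apoe and Clu differed by 0.01 and 0.03, and Sparcl1, a synapse-promoting relative of Sparc, by -0.05.

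The remaining 4 genes had differences close to 0. The metallothioneins Mt1 and Mt3, small proteins that bind zinc and copper, differed by -0.02 and 0.00033. The calcium-binding protein S100b and the neurotensin receptor Ntsr2 differed by 0.02 and -0.03. All 4 had adjusted p-values between 0.863 and 0.998. Of a further list of 36 astrocyte genes, 29 were tested and 0 passed, 2 of them with an unadjusted p under 0.05, against 10% of all genes, with 13 positive and 16 negative and a median difference of -0.01. The smallest p-values of that list belonged to Cbs, Sox2, Slc15a2 and Nfib, which differed by -0.13, -0.08, 0.27 and -0.13 (adjusted p = 0.359, 0.397, 0.419 and 0.458). A p above the threshold does not show that the groups were alike: the intervals of the named genes above give the sizes these arrays leave possible.

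Reactive and homeostatic genes were then set against each other in each animal, as the mean deviation of a group of genes from their 20-animal means. No test was made of these means, since the genes were chosen with earlier results known. The 3 tested reactive genes averaged -0.04 ± 0.21 in ethanol animals and 0.04 ± 0.14 in water animals (SD, n = 10 each). The 25 tested homeostatic genes averaged -0.02 ± 0.07 in ethanol animals and 0.02 ± 0.14 in water animals. The difference between groups was -0.07 for reactive and -0.04 for homeostatic genes, both smaller than the SD within either group. The sign of the reactive mean came from Gfap (-0.36), since Vim (0.06) and Cd44 (0.09) were positive. The median of the 3 reactive differences was 0.06. Reactive minus homeostatic ran from -0.26 to 0.30 in ethanol animals and from -0.22 to 0.14 in water animals, with a difference of -0.03. Ethanol animal 5 had the highest reactive mean, 0.34, with a Gfap value of 10.55 and the highest Vim and Cd44 values of its group. Water animal 20 had the highest homeostatic mean, 0.34, beside a reactive mean of 0.11. Leaving out water animals 17, 19 and 20 gave differences of -0.0098 for reactive and 0.03 for homeostatic genes.

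How much a gene varied between animals of the same group differed widely. The within-group SD was 0.69 for Agt, larger than for 99.8% of all tested genes, and 0.47 for Gfap, larger than for 99.0%. Gjb6 followed at 0.39, Sparc at 0.35, Id3 at 0.33, Slc6a9 at 0.32 and Atp1b2 at 0.29, against 0.13 for the median gene of the array. Gja1, at 0.07, was larger than 6.91% of genes in SD, and Mt3, also at 0.07, than 10.4%. Water had the higher SD for 21 of the 28 genes (75%), as it had for 81.2% of all genes. When water animals 17, 19 and 20 were left out it was higher for 14 of 28 (50%), against 62.2% of all genes.

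**Figure D3:**
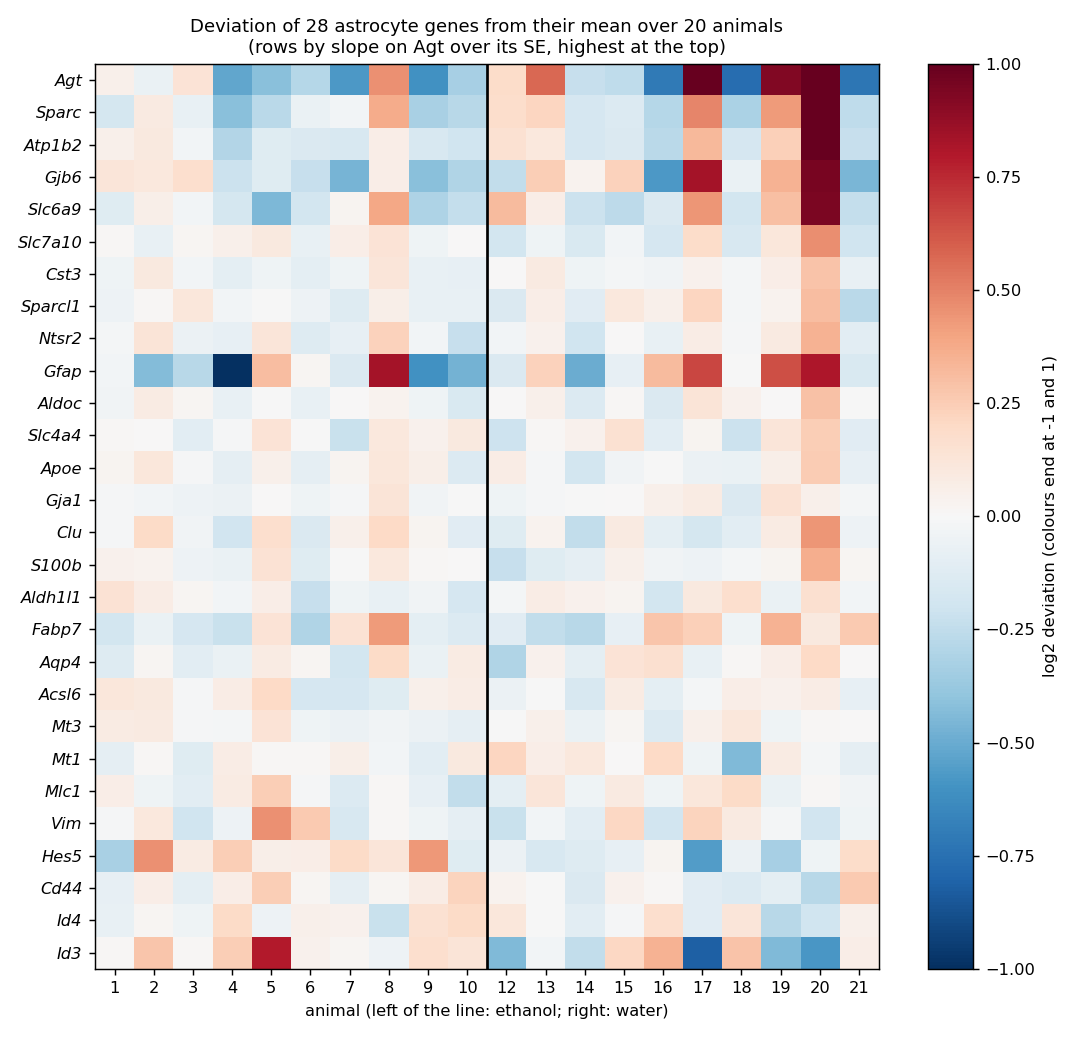
Deviation of 28 astrocyte genes (rows) from their mean over 20 animals (columns, ethanol left of the line and water right of it), on the log2 scale with colours ending at -1 and 1. Rows run from the steepest positive slope on Agt, over its SE, to the steepest negative. Water animals 17, 19 and 20 are red in the upper rows, while ethanol animal 8 is red for Agt, Sparc and Slc6a9 and pale for Gjb6 and Atp1b2. The same water animals are blue for Id3 and Id4, and ethanol animal 8 is blue for Id4 too.

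Which astrocyte genes varied together was read from a fit over all probe sets with the group and the value of 1 gene as terms, so that a slope describes animals within groups. With Gfap as that gene, 7 of 27 genes had a positive slope past the threshold, against 6.98% of all genes, and 1 had a negative slope, against 4.72%. The positive ones were Sparc (slope 0.51, SE 0.12, adjusted p = 0.0246), Ntsr2, Fabp7, Agt, Slc7a10, Slc6a9 and Atp1b2, and the negative one was Id4 (-0.21, SE 0.05, adjusted p = 0.0274). Vim, the filament partner of Gfap, had a slope of 0.10 (SE 0.09, adjusted p = 0.499), and Cd44 one of -0.07 (adjusted p = 0.518). In the fit without water animals 17, 19 and 20, 0 of 27 genes and 0% of all genes passed on the Gfap slope, and 6 of 27, against 6.48%, had an unadjusted p under 0.05. With Aqp4 in place of Gfap, 0 of 27 genes and 0% of all genes passed with all animals included, and 6 of 27, against 12%, had an unadjusted p under 0.05. With all animals, Gfap also rose with markers of another cell type. There, 13 of 16 oligodendrocyte genes had a positive slope on Gfap past the threshold, and 22 of 25 medium spiny neuron genes a negative one. Of 10 general neuron genes, 2 had a positive and 0 a negative slope past the threshold. No gene of these lists passed on Gfap without water animals 17, 19 and 20.

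Agt was used as a further anchor, chosen after its spread was seen. With all animals, 10 of 27 astrocyte genes had a positive slope on Agt past the threshold, against 16.7% of all genes, and 2 had a negative one, against 13.9%. The steepest positive slope belonged to Gjb6, 0.50 (SE 0.06, adjusted p = 2.8e-06), followed by Sparc, 0.47 (SE 0.04, adjusted p = 1.9e-07), Gfap, 0.43 (SE 0.12, adjusted p = 0.0089), Slc6a9, 0.40 (SE 0.05, adjusted p = 1.2e-05), and Atp1b2, 0.38 (SE 0.04, adjusted p = 2.4e-06). Slc7a10, Cst3, Sparcl1, Ntsr2 and Aldoc had slopes of 0.19, 0.10, 0.14, 0.14 and 0.10. The 2 negative genes were Id3 (-0.37, SE 0.07, adjusted p = 0.00043) and Id4 (-0.15, SE 0.04, adjusted p = 0.0035). Aqp4, with a slope of 0.03, Vim, with -0.0030, and Mt1 and Mt3, each with 0.02, did not pass. A high share of the whole array moved with Agt too, and so did markers of other cells: 23 of 25 medium spiny neuron genes had a negative slope, and 5 of 16 oligodendrocyte, 5 of 6 oligodendrocyte precursor and 5 of 13 microglial genes a positive one. Of 10 general neuron genes, 4 had a positive and 1 a negative slope past the threshold. Of 13 genes of blood vessel cells, 0 passed.

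Without water animals 17, 19 and 20, 4 of the 27 genes still had a positive slope on Agt, against 2.02% of all genes, and 0 had a negative one, against 1.6%. The 4 genes were Sparc (slope 0.45, SE 0.08, adjusted p = 0.0048), Atp1b2 (0.30, SE 0.05, adjusted p = 0.0057), Gjb6 (0.45, SE 0.11, adjusted p = 0.0306) and Slc6a9 (0.36, SE 0.10, adjusted p = 0.0404). Leaving out ethanol animal 8 as well left 3 genes past the threshold, Gjb6, Atp1b2 and Sparc, against 2.34% of all genes, and 0 with a negative slope, against 3.51%. With the medium spiny neuron mean of each animal as a further term, 1 gene, Gjb6 (0.71, SE 0.12, adjusted p = 0.0045), passed on the Agt slope, against 0.81% of all genes with a positive slope.

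**Figure D4:**
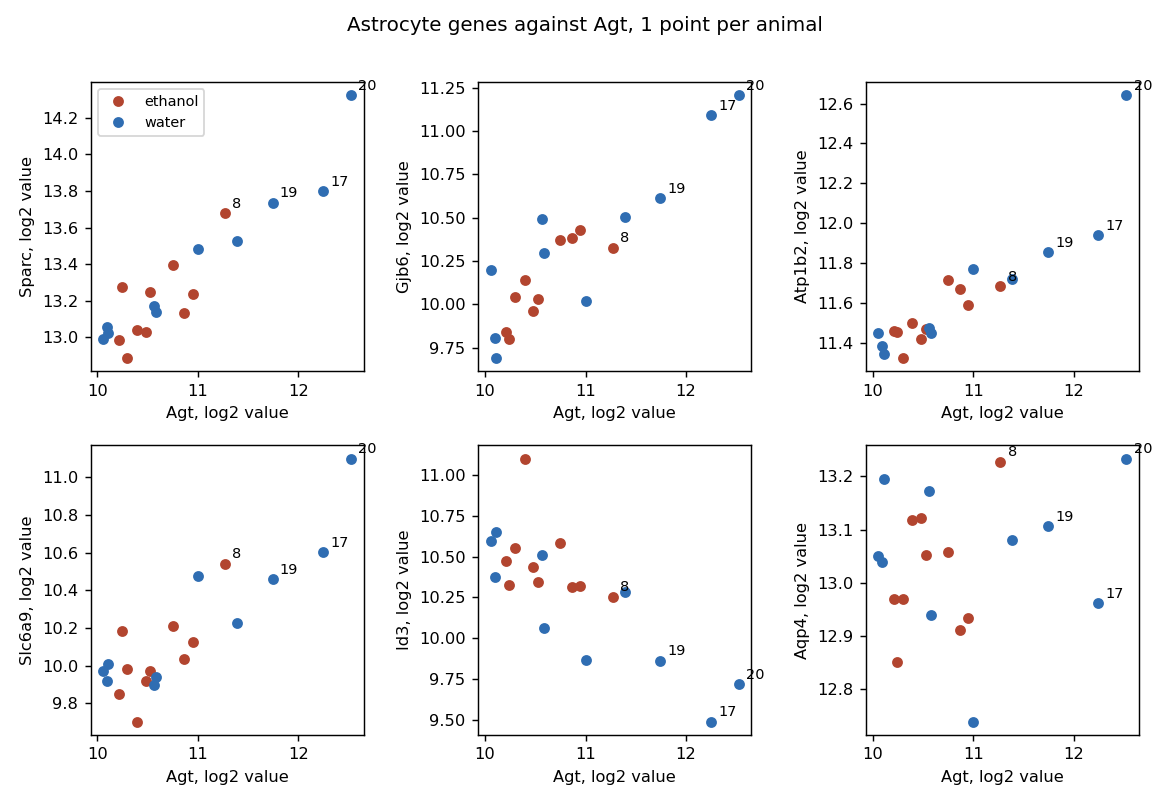
Log2 values of Sparc, Gjb6, Atp1b2, Slc6a9, Id3 and Aqp4 (vertical) against Agt (horizontal), 1 point per animal, ethanol red and water blue, with ethanol animal 8 and water animals 17, 19 and 20 numbered. Among the unnumbered animals the slopes of Sparc, Gjb6 and Atp1b2 passed the threshold, while those of Slc6a9 (0.28, adjusted p = 0.0950) and Id3 (-0.32, adjusted p = 0.192) did not; Aqp4 did not pass in any set.

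The promoter windows are shown for the 3 genes that kept their slope on Agt in both smaller sets of animals. Windows are also shown for Id3 and Id4, whose negative slopes passed with all animals but in neither of those smaller sets. Each window is 300 bases of the rat assembly GRCr8 from RefSeq, 250 before and 50 after the gene's start, 5' to 3' on the gene's strand. Capitals mark matches, on either strand, to TGCNCNC, a looser pattern than the core of the metal response element, so that not every match is such a core. Adjoining capitals in Gjb6 and Id3 are 2 overlapping matches. A sequence was given for 28 of the 31 genes and not for Agt, Clu and Sox9.
Sparc (chr10:40038767-40039066, minus strand): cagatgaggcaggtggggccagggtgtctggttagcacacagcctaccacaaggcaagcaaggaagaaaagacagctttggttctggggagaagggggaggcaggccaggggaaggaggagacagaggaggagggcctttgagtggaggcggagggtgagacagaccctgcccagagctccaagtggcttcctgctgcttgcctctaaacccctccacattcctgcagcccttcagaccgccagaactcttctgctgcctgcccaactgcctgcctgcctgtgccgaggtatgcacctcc
Gjb6 (chr15:35410089-35410388, minus strand): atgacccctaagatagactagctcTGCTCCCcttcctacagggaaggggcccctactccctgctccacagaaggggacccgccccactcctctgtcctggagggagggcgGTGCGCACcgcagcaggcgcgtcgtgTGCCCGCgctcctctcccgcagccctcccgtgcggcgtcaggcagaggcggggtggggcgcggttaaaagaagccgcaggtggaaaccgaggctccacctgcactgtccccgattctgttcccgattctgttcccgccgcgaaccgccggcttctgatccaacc
Atp1b2 (chr10:54823659-54823958, minus strand): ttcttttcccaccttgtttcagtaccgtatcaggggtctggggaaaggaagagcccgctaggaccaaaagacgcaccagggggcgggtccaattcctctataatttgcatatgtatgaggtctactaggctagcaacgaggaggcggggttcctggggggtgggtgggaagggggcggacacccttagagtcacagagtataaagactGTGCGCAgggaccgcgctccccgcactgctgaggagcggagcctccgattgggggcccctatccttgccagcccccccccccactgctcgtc
Id3 (chr5:153656041-153656340, plus strand): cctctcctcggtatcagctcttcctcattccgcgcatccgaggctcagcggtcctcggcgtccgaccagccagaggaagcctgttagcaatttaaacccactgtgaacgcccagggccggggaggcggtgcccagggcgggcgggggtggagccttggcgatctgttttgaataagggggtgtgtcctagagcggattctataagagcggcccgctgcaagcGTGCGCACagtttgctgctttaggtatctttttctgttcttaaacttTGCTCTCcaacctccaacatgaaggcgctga
Id4 (chr17:16598244-16598543, minus strand): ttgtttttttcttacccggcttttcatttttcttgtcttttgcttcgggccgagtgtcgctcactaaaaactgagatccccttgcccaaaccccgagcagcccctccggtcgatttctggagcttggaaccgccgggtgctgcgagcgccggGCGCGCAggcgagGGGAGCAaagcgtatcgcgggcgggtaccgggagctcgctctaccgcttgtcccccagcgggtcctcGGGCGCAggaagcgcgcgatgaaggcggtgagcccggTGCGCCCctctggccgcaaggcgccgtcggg

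Sparc held 0 matches, Atp1b2 1, Id3 3, and Gjb6 and Id4 4 each. At least 1 match occurred in 20 of the 28 promoters, against 50.1% of 27457 rat promoters, so that a single match is common. Matches to other motifs were few: TTCNNNGAA, bound by STAT factors, was in 3 of 28 (Acsl6, Ntsr2 and Serpina3n) and in 8.68% of all promoters. TGANTCA, bound by AP-1, was in 1 (Gja1) and in 7.33%. Of the SOX motifs, ACAAAG was in 2 (Hes5 and Mlc1) and in 18.3%, and ACAATG in 1 (Hes5) and in 13%. None of the 5 genes printed held a match to these 4 motifs. A match is a run of letters and not a shown binding site.

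On the other astrocyte list, 9 of 29 genes had a positive slope on Agt past the threshold, against 16.7% of all genes, and 6 a negative one, against 13.9%. Among the positive were Itih3, which encodes a hyaluronan-binding matrix protein (0.52, SE 0.05), and Slc25a18, a mitochondrial glutamate carrier (0.27, SE 0.04). Among the negative were Slc1a2, the main glutamate transporter of astrocytes (-0.27, SE 0.05), Slc15a2, a peptide transporter (-0.30, SE 0.08), and Ezr, a linker of membrane and actin (-0.25, SE 0.05). The slopes of this list were read with all animals only. Without water animals 17, 19 and 20, the share of all genes that passed on Agt was 2.02% positive and 1.6% negative. 

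The medium spiny neuron mean was also used as the anchor. With all animals, 13 of 28 astrocyte genes had a negative slope past the threshold, against 19.6% of all genes, and 2, Id3 and Id4, a positive one, against 14.3%. Agt had the steepest slope, -1.70 (SE 0.20), followed by Sparc, -0.90 (SE 0.09), Gfap, -0.89 (SE 0.21), and Slc6a9, -0.84 (SE 0.08). Aqp4 had a slope of -0.07 (SE 0.08, adjusted p = 0.574). With water animals 17, 19 and 20 left out, Slc6a9 (-1.02, SE 0.16, adjusted p = 0.00061) and Sparc (-0.98, SE 0.18, adjusted p = 0.0021) kept a negative slope and Acsl6 had a positive one (0.41, adjusted p = 0.0486), against 4.01% and 5.22% of all genes. With ethanol animal 8 left out as well, Slc6a9 and Sparc passed (adjusted p = 0.0186 and 0.0474), Acsl6 did not (0.51, adjusted p = 0.112), and 1.32% of all genes had a negative and 2.7% a positive slope past the threshold. Markers of ependyma, choroid plexus and meninges had mean deviations of -0.13 to 0.33 in ethanol animals and of -0.30 to 0.20 in water animals, with water animal 20 at 0.03. The mean of the septum and pallidum genes in water animal 20 was 0.50, the highest of all animals. It was 0.21 in water animals 17 and 19 and -0.00099 in ethanol animal 8. The genes of this list went different ways. In water animal 20, Trpc4 (8.25), Tmem163, Trh and Dlk1 had the highest value of the water group, and Prkcd (8.06) the lowest.

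**Figure D5:**
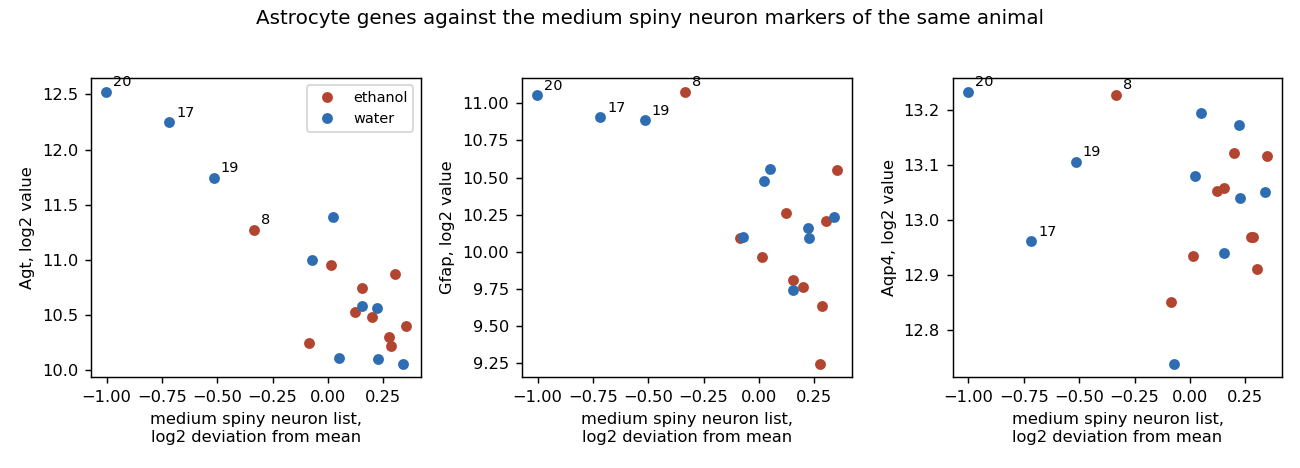
Log2 values of Agt, Gfap and Aqp4 (vertical) against the mean deviation of 25 medium spiny neuron markers (horizontal), 1 point per animal, ethanol red and water blue. The 4 numbered animals lie left and high for Agt and Gfap, while Aqp4 shows no such order.

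For 8 pairs of related genes, correlations were computed over 20 animals after the group means were removed, with permutation p-values adjusted over the pairs. Gfap and Slc7a10 had r = 0.63 and rho = 0.61 (permutation p = 0.0027 and 0.0053, adjusted p = 0.0107 and 0.0408), and r was 0.75 without ethanol animals 4 and 8. It was 0.52 among ethanol animals and 0.82 among water animals, and 0.44, no longer past the threshold, without water animals 17, 19 and 20 (permutation test, adjusted p = 0.203). Sparc and Sparcl1 had r = 0.64 and rho = 0.51 (permutation p = 0.0024 and 0.0226, adjusted p = 0.0107 and 0.0556), but r was 0.30 without water animals 17 and 20, so that the relation rested on them. Id3 and Id4 had r = 0.47 and rho = 0.57 (permutation p = 0.0357 and 0.0102, adjusted p = 0.0571 and 0.0408), and r was 0.64 without ethanol animal 5 and water animal 17. It was 0.20, with rho = 0.35, without water animals 17, 19 and 20 (adjusted p = 0.503 and 0.293), and r was 0.12 among ethanol animals and 0.68 among water animals, so the call was lost in these smaller sets (permutation tests). Gfap and Aqp4 had r = 0.49 and rho = 0.46 (permutation p = 0.0288 and 0.0425, adjusted p = 0.0571 and 0.0680). The remaining pairs other than the metallothioneins did not pass: r was 0.36 for Gja1 and Gjb6, 0.26 for Gfap and Vim and 0.20 for Aqp4 and Mlc1 (permutation tests, adjusted p = 0.154, 0.312 and 0.391; rho = 0.35, 0.29 and 0.15). The partner genes of astrocyte gap junctions and of filaments were thus not shown to vary together between animals.

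Mt1 and Mt3 were the pair with a negative sign, r = -0.52 and rho = -0.50 (permutation p = 0.0178 and 0.0278, adjusted p = 0.0474 and 0.0556). The correlation was -0.21 among ethanol animals and -0.74 among water animals, and -0.45 without water animals 12 and 18. Both genes lie on chromosome 19, and their promoter windows are shown because they hold the most matches to TGCNCNC among the promoters given, marked in capitals as before.
Mt1 (chr19:10832926-10833225, minus strand): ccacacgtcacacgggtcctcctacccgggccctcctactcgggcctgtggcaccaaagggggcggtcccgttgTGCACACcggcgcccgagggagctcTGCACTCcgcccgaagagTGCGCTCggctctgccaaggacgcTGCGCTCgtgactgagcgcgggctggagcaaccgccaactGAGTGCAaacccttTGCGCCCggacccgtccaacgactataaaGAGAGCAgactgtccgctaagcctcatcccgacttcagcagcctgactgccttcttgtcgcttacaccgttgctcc
Mt3 (chr19:10856031-10856330, minus strand): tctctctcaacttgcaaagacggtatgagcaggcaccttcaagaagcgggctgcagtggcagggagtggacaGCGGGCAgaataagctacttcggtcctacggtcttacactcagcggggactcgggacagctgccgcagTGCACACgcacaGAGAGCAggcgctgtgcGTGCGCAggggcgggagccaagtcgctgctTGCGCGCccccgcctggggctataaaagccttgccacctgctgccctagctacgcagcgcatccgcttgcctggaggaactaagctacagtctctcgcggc

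Mt1 held 7 matches to TGCNCNC, a number that 0.0983% of rat promoters reach, and Mt3 held 5, which 0.652% reach. Mt1 was the dimmer gene, with 1 probe set of mean 7.24, against 14.32 for Mt3 and 6.65 for the level below which probe sets were left out. The within-group SD was 0.14 for Mt1 and 0.07 for Mt3. Mt1 ranged from 7.12 to 7.34 in ethanol animals and from 6.80 to 7.46 in water animals. Mt3 ranged from 14.23 to 14.46 in ethanol animals and from 14.19 to 14.43 in water animals.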

How the data were processed

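Total RNA of the accumbens shell was labelled with biotin by the Affymetrix 3' kit, per the labels' protocols, and hybridised to 1-colour arrays, 1 per animal. RMA was used, per the submitters' processing notes; its software and chip definition are not stated in the labels. The authors deposited log2 values, from 3.89 to 16.25, with array medians of 7.93 to 7.98. Since RMA equalises arrays, a shift shared by most genes would not be seen.

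The table held 31099 probe sets, of which 20826 had 1 gene in the platform annotation, 436 several and 9780 none, and 57 were controls; 20758 matched the RefSeq table. Controls and the dimmest 33.3% (mean below 6.65) were left out, leaving 20695 probe sets. Groups were compared with limma (3.58.1, R 4.3.3, lmFit and eBayes, two-sided), adjusted by Benjamini-Hochberg over all probe sets. Slopes came from the same fit with an anchor value added. Correlations used 100000 permutations. The script was tested on simulated data. Full statistics are given for the 5 reactive genes and the 10 others of smallest p. The members and gene lists were chosen with earlier results of these data known. Alternatives changed the filter, normalization, variance model, weights, covariates, probe sets and animals.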

Additional observations from a re-analysis of the deposited data

Results flagged for a closer look

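In a group of 10 animals, a value was looked at again when the gap between the highest or lowest animal and its neighbour took up more of the group's range than Dixon's 95% critical value allows. This held for 9 of 68 groups of values. Chance gives about 1 in 20 for independent groups. These groups share the same arrays, and some are means of the others, so the count cannot be set against that share. In water animal 20 it held for 5 genes at the high end: Atp1b2 at 12.64 (next animal 11.94), Clu at 13.54, Cst3 at 15.31, S100b at 14.50 and Ntsr2 at 13.18. The homeostatic mean of the same animal, which includes these 5 genes, was 0.336, against 0.114 for the next. Water animal 18 was lowest for Mt1, at 6.80, with the next at 7.16. Ethanol animal 8 was highest for Gja1, at 14.61, with the next at 14.48, and ethanol animal 5 was highest for Id3, at 11.10, with the next at 10.58.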

How the results depend on the processing

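The count of astrocyte genes past the threshold between ethanol and water was 0 under each of 13 alternatives and each of 20 fits that left out 1 animal. Over the whole array, 10 genes passed, and this became 6 with a stricter filter on dim probe sets, 16 with array weights, 5 without water animals 12, 17 and 20, 2 with RNA integrity (the 3' minus 5' value) as a term, 17 with the medium spiny neuron mean as a covariate and 7 to 11 when 1 animal was left out. Differences that changed sign were Agt (0.056), Atp1b2 (0.016) and Aldoc (0.00023) without water animals 17, 19 and 20, Atp1b2 (0.0038) and Aldoc (0.00061) without 12, 17 and 20, and Slc6a9 (0.0101), Agt (0.0061) and Atp1b2 (0.0019) with the medium spiny neuron mean as a covariate. None of these passed in either direction. Genes with a positive slope on Gfap numbered 0 without water animals 17, 19 and 20, without 12, 17 and 20, and with the medium spiny neuron mean. Those on Agt numbered 4, 4 and 1 in the same settings, and 3 without water animals 17, 19 and 20 and ethanol animal 8. Among ethanol animals alone, r was -0.21 for Mt1 and Mt3, 0.43 for Sparc and Sparcl1 and 0.52 for Gfap and Slc7a10, and none passed. Id3 and Id4 had r = 0.12 in ethanol animals alone. Among water animals alone, Mt1 and Mt3 (r = -0.74) and Sparc and Sparcl1 (r = 0.70) did not pass, nor did Id3 and Id4 (r = 0.68). Without water animals 17, 19 and 20, r was -0.0037 for Gja1 and Gjb6, -0.50 for Mt1 and Mt3, 0.20 for Id3 and Id4, 0.24 for Sparc and Sparcl1 and 0.44 for Gfap and Slc7a10, and none passed. The cause of these changes was not tested, beyond fewer animals or genes where the setting leaves some out. The mean difference over the 28 genes, -0.04, ran from -0.07 to 0.02 over the alternatives and turned positive without water animals 17, 19 and 20 (0.02), without 12, 17 and 20 (0.0035), without 17, 19 and 20 and ethanol animal 8 (0.0080) and with the medium spiny neuron mean as a covariate (0.02). The homeostatic mean turned positive in the same 4 settings (0.03, 0.0099, 0.01 and 0.02). Leaving out 1 animal moved the mean difference over the 28 genes between -0.06 and -0.01, the reactive mean between -0.11 and -0.04, the homeostatic mean between -0.05 and -0.0047 and their contrast between -0.07 and -0.0052. No paired analysis was possible because each animal carries a number of its own. These values carry no measure of background, so a change in a dim gene such as Serpina3n or Lcn2 could have been missed.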
